A study of Bombus lucorum with 81 samples.

Results

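The comparison concerns *Bombus lucorum* workers from the highland belt of the Berchtesgaden Alps, where livestock grazed a single study site. The members were chosen by elevation and by site: 26 of the 81 bees of the series came from the 5 sites between 1579 and 1930 m. The grazed group was the 5 bees of site Wmb4 (1655 m, Watzmann transect, mean site temperature 5.37 °C, plant richness 35, plant cover 1.88). The ungrazed group was the other 21 bees, with 5 bees from H5 (1579 m, 5.81 °C) and 9 from H6 (1808 m, 4.58 °C) on the Hintersee transect, and 5 from Wma6 (1930 m, 4.58 °C) and 2 from Wmb5 (1813 m, 4.63 °C) on the Watzmann transect. Plant richness and cover were 46 and 6.65 at H5, 53 and 1.25 at H6, 36 and 2.25 at Wma6, and 54 and 4.65 at Wmb5. All bees were free-living foragers caught with nets in the same summer, and their age, colony and nest site are not known. Head, legs, wings and gut were removed, and poly-A RNA of thorax and abdomen was sequenced as 1 library per bee. The paper reports a wide range of RNA integrity over its samples, which did not enter the tests below. GEO's labels give the site of each bee, and whether a site was grazed comes from the sample table of the study. Because 1 grazed site stands against 4 ungrazed ones, grazing and everything else that is particular to Wmb4 cannot be told apart, and with sites as the units no exact two-sided test could give a p below 0.2.

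Thorax and abdomen of a bumblebee hold the flight muscles, the fat body, oenocytes, glands and the ovaries. The fat body stores lipid, glycogen and protein and makes most haemolymph proteins, and it degrades amino acids for energy in its mitochondria. Peroxisomes shorten long fatty acids and take part in the breakdown of hydrogen peroxide, lysosomes digest material taken up or worn out by the cell, and cytochrome P450 enzymes oxidise plant compounds, pesticides and hormones. Grazing can change which plants flower at a site, and with them the nectar and pollen that foragers find. The study asked whether bees of grazed and ungrazed grassland differ in gene expression.

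Between 17855944 and 32939542 reads per highland bee were counted on genes, and the bees of Wmb4 (20341420 to 25489296) lay inside the range of the ungrazed bees. The levels below are in CPM, read counts per gene relative to the library size as scaled with the TMM method, and fold changes are Wmb4 over the ungrazed bees on the log2 scale, with a standard error (SE). Differences were tested in 9519 genes with the quasi-likelihood test of edgeR, and a gene counted as called where its p, adjusted by Benjamini-Hochberg over these genes, was under 0.05 and its log2 fold change was 0.5 or more in size. Contractile genes of muscle were read in every bee, with a summed level of 3700 to 10660 CPM in Wmb4 and 3654 to 16120 CPM in the ungrazed bees over 19 genes, of which none was at 0 in all bees of a group. Genes of digestive enzymes and of the peritrophic matrix, which line and fill the gut, were also read although the gut had been removed. Their 13 named genes summed to a median of 592.9 CPM (455.5 to 22320) in Wmb4 and of 30800 CPM (436.5 to 71080) in the ungrazed bees. As the mean of 12 tested genes on a centred log2 scale, this gut-type score was -2.996, 0.47, 0.45, -3.29 and -3.04 in the bees of Wmb4, against a median of 1.27 (-4.02 to 2.49) in the ungrazed bees. The share of these genes in the differences at Wmb4 was examined with the score as a covariate, given with the lysosome list. Scores below -2 occurred in 3 bees of Wmb4 and in 5 ungrazed bees, and the mean difference of -2.08 had an exact permutation p of 0.053 (two-sided, n = 5 and 21). Fewer cells of a type and less RNA per cell cannot be told apart in such whole-body libraries.

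At Wmb4, 35 genes were lower and 15 were higher than in the ungrazed highland bees, that is 0.368% and 0.158% of the genes tested. Their adjusted p values lay between 0.0392 and 0.0493, just under the threshold, and 1322 genes had an unadjusted p under 0.05 (6.98% higher and 6.91% lower). The lower genes had the larger changes, with log2 fold changes of -0.74 to -4.18 and a median of -1.56, against 0.54 to 2.87 and a median of 0.88 for the higher genes. All 50 genes, chosen for a difference in these same bees, moved in the same direction against each of the 4 ungrazed sites taken singly. No gene had all 5 bees of Wmb4 above or below all 21 ungrazed bees (0% of the genes in either direction). In 35 of the 35 lower genes the highest bee of Wmb4 was below the median ungrazed bee. In 13 of the 15 higher genes the lowest bee of Wmb4 was above it. The genes were called for a difference between these bees, so these 2 counts are partly set by the choice. The calls depended on the libraries used. Without any 1 of the 5 bees of Wmb4 only 0 to 3 genes were called higher and 0 to 5 lower, and without site H6 or without site Wma6 there were 0 in both directions (1170 and 864 genes at an unadjusted p under 0.05). The direction of the 50 genes was kept in each of these fits, which share most of the bees in which the genes were chosen.

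Each ungrazed site was then set against the rest of the highland bees in the same way, to show how far a single site departs from the others. H6 differed in 17 higher and 7 lower genes (0.182% and 0.0747% of 9366 genes), Wma6 in 4 higher and 0 lower genes (0.042% and 0%), H5 in 1 higher and 0 lower (0.0105% and 0%), and Wmb5, with only 2 bees, in 0 of 9710 genes. The unadjusted p was under 0.05 for 1369 genes at H6, 1222 at Wma6, 286 at H5 and 271 at Wmb5, beside the 1322 at Wmb4. In percent of the genes tested, the higher and the lower ones among them were 7.08% and 7.54% at H6, 5.59% and 7.25% at Wma6, 1.94% and 1.06% at H5, and 1.39% and 1.4% at Wmb5. By this looser measure H6 and Wma6 departed from the other sites by about as many genes as Wmb4. DESeq2 with a fold-change prior called 45 higher and 179 lower genes at Wmb4, 75 and 68 at H6, 24 and 41 at Wma6, 11 and 0 at H5, and 1 and 0 at Wmb5. With the Wmb4 bees left out, H6 differed from the other ungrazed sites in 1 higher and 2 lower genes, Wma6 in 1 and 0, H5 in 2 and 0, and Wmb5 in 0. In a choice of bees made after seeing the data, H6 with only its bees numbered 1 to 5 had 113 higher and 42 lower genes, more than Wmb4. All bees of a site lay above every other highland bee in 0.0105% of the genes at Wma6 and 0.147% at Wmb5, and below every other one in 0.021% and 0.179%, while H5 and H6 had no such gene. These comparisons share most of their bees, so their counts are not independent of each other, and the balance of lower and higher genes changed with the measure: at an unadjusted p under 0.05 it was 658 lower and 664 higher at Wmb4, 690 and 532 at Wma6, and 706 and 663 at H6.

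**Figure D1:**
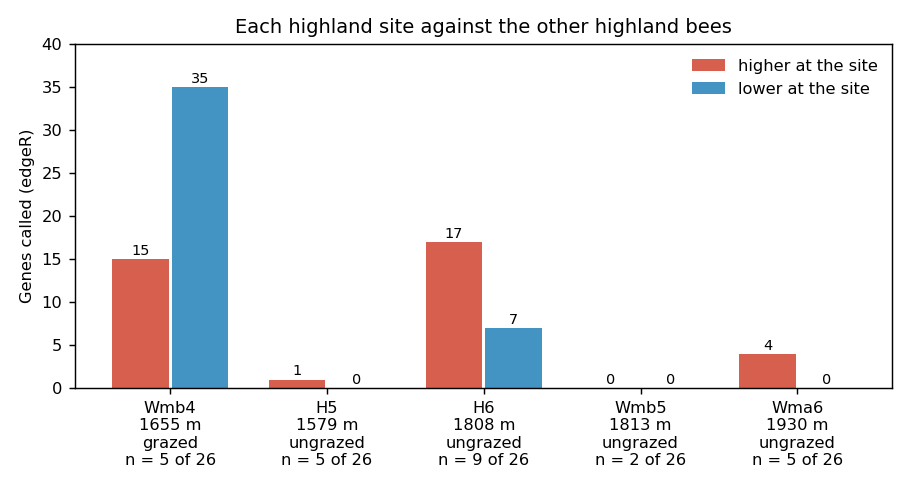
Number of genes called by edgeR (y axis) when each highland site was compared with the other highland bees, red for higher and blue for lower at the site. Wmb4 had 15 higher and 35 lower genes, H6 had 17 and 7, and the other ungrazed sites had 0 to 4.

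The lower genes included enzymes that break down branched-chain amino acids. 3-hydroxyisobutyrate dehydrogenase (LOC100650674), a mitochondrial enzyme of valine degradation, had 16.4, 21.05, 18.6, 14.5 and 18.3 CPM in the bees of Wmb4, against a median of 41.4 CPM (14.3 to 63.9) in the ungrazed bees. A single ungrazed bee, at H5, reached down into the range of Wmb4, and the log2 fold change was -1.25 (SE 0.267, adjusted p = 0.0405 from edgeR). Methylmalonate-semialdehyde dehydrogenase (LOC100642261), which acts just after it in the same pathway, had 79.4, 72.1, 64.1, 58.6 and 119 CPM in Wmb4, against a median of 142 CPM (87.0 to 222) in the ungrazed bees. Its log2 fold change was -0.95 (SE 0.221, adjusted p = 0.0448), and 7 ungrazed bees lay below the highest bee of Wmb4. The short/branched chain specific acyl-CoA dehydrogenase (LOC100649947), an enzyme of isoleucine degradation in mammals, had 39.0, 53.6, 62.4, 85.3 and 41.6 CPM in Wmb4, against a median of 144 CPM (69.5 to 248) in the ungrazed bees, a log2 fold change of -1.42 (SE 0.286, adjusted p = 0.0392).

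Over the 13 tested genes that the study lists for valine, leucine and isoleucine degradation, all 13 had a log2 fold change below 0, beside 49.7% of all genes. Their median was -0.67, where that of all genes was 0.0025, and 7 of them had an unadjusted p under 0.05 on the lower side, beside 6.91% of all genes. Only 2 of the 13 were called, LOC100642261 and LOC100645782, which has no name in the files and had 54.95, 49.97, 70.6, 63.9 and 52.8 CPM in Wmb4 against a median of 145 CPM (58.6 to 190) in the ungrazed bees. The mean of the 13 genes, on a centred log2 scale, lay in a narrow band of -0.61 to -0.47 in the 5 bees of Wmb4, while the ungrazed bees ran from -0.78 to 0.62 with a median of 0.23. The study drew up these pathway lists on a set of bees that includes these, so the lists are not independent evidence of a direction, and the genes of a list rise and fall together from bee to bee. They hold the genes behind an enrichment and not all genes of a pathway. The share of a list below 0 is thus partly set by that choice, unlike the share of all genes. The beta-alanine list, which shares members with the valine, leucine and isoleucine list, had 23 of 24 genes below 0 with a median of -0.73, of which 2 were called.

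**Figure D2:**
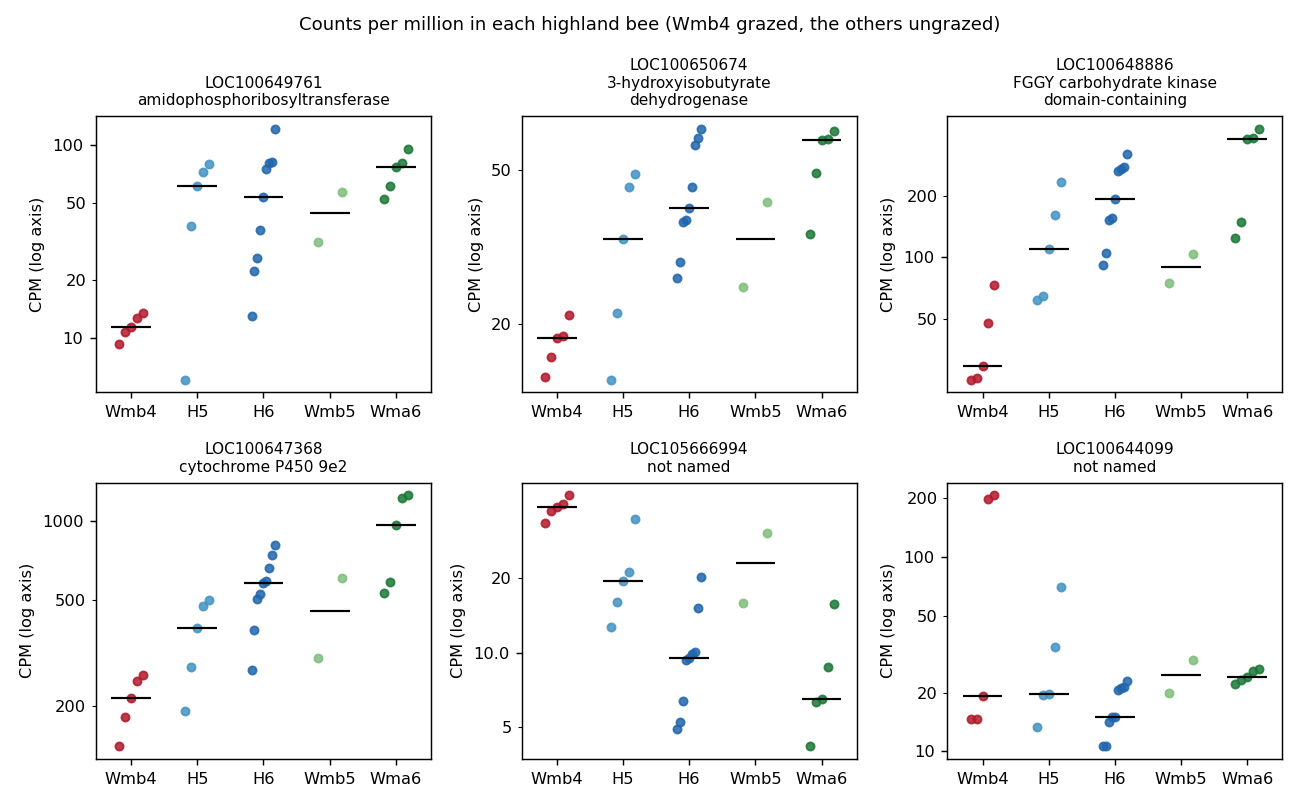
CPM of 6 genes (y axis, logarithmic) in each highland bee by site, with 1 point per bee and a line at the median of the site. In the 4 named genes the bees of Wmb4 sit at the low end with few ungrazed bees among them, LOC105666994 is higher in all 5 bees of Wmb4 than in 20 of the ungrazed bees, and LOC100644099 is high in only 2 bees of Wmb4.

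Enzymes of purine and folate metabolism formed the next group. Amidophosphoribosyltransferase (LOC100649761), which catalyses the committed step of purine synthesis, had 11.3, 13.5, 9.33, 12.7 and 10.7 CPM in Wmb4, against a median of 61.7 CPM (6.06 to 122) in the ungrazed bees. The bees of Wmb4 were close together, with an SD of 1.63 CPM against 29.3 CPM in the ungrazed bees, and 2 ungrazed bees, H5 replicate 4 and H6 replicate 2, were as low. The log2 fold change was -2.35 (SE 0.463, adjusted p = 0.0392 from edgeR). LOC100648293 and LOC100645387, which have no name in the files and stand in the purine metabolism list of the study, were called as well, with log2 fold changes of -1.55 and -0.80. Of the 21 tested genes of that list 16 were below 0, with a median of -0.38, and 9 had an unadjusted p under 0.05 on the lower side. LOC100644014, listed under the one-carbon pool by folate, had a log2 fold change of -1.98, and 8 of the 10 tested genes of that list were below 0. Sideroflexin-1 (LOC100649190), a serine carrier of the inner mitochondrial membrane in mammals that feeds one-carbon metabolism, had 24.7, 22.4, 28.2, 32.8 and 26.8 CPM in Wmb4, against a median of 89.6 CPM (30.6 to 163) in the ungrazed bees. Its log2 fold change was -1.65 (adjusted p = 0.0448).

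Several lower genes act on sugars and sugar alcohols, and most of those described here were picked after their values were seen. Inositol oxygenase (LOC100646373), which opens the ring of myo-inositol to give glucuronate, had 156, 445, 894, 1055 and 152 CPM in Wmb4, against a median of 2579 CPM (544 to 5560) in the ungrazed bees. The bees of Wmb4 spread widely here, yet only 3 ungrazed bees lay below the highest of them, and the log2 fold change was -2.40 (adjusted p = 0.0461 from edgeR). The FGGY carbohydrate kinase domain-containing protein (LOC100648886), a member of a family that phosphorylates sugars, had 25.1, 25.7, 47.8, 73.6 and 29.2 CPM in Wmb4, against a median of 157 CPM (61.8 to 428) in the ungrazed bees, a log2 fold change of -2.28 (SE 0.464, adjusted p = 0.0392). LOC100650820 and LOC100652140, both without a name and both in the list for pentose and glucuronate interconversions, had log2 fold changes of -1.32 and -1.15. That list had 11 of 13 tested genes below 0 and a median of -0.81, and 6 had an unadjusted p under 0.05 on the lower side. LOC100645568, listed under fructose and mannose metabolism, had a log2 fold change of -1.74, and all 17 tested genes of that list were below 0 with a median of -0.53.

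Single genes of detoxification and lipid metabolism were also lower. Cytochrome P450 9e2 (LOC100647368), of a family that oxidises foreign compounds in bees, had 140, 215, 261, 248 and 181 CPM in Wmb4, against a median of 534 CPM (191 to 1248) in the ungrazed bees. One H5 bee was below the highest bee of Wmb4, and the log2 fold change was -1.50 (SE 0.35, adjusted p = 0.0460 from edgeR). Of the 13 named P450 genes 12 were below 0, with a median of -1.19, and 6 had an unadjusted p under 0.05 on the lower side. With the gut-type score as a covariate this median was -0.69, and that of the study's list for xenobiotic metabolism by cytochrome P450 was -0.06 in place of -0.57. All 6 carry the name 9e2 or 9e2-like, an observation made after their values were seen. Reads that matched several genes were counted as fractions, and LOC100647368 had counts that are not whole in 88.5% of the highland bees, so the levels of these similar genes are not measured apart from each other. Lipase member H-like (LOC110119437) had 9.30, 16.2, 22.5, 15.9 and 17.7 CPM in Wmb4, against a median of 50.7 CPM (11.9 to 132) in the ungrazed bees, a log2 fold change of -1.96 (adjusted p = 0.0392). 4-coumarate--CoA ligase 1 (LOC100643214), as the annotation names an enzyme that joins an acid to coenzyme A, differed by -1.32 on the log2 scale (adjusted p = 0.0448). Genes picked by name for fatty acid synthesis and wax did not share this direction: 10 of 16 were above 0, with a median of 0.30, 0 calls, and a median of -0.03 with the Watzmann sites only. The study's list for unsaturated fatty acids did share it, with 15 of 17 tested genes below 0, a median of -0.41 and 0 calls. In that list 7 genes had an unadjusted p under 0.05 on the lower side.

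In the peroxisome list most genes were below 0, although a single gene was called. Of its 31 tested genes 30 were below 0 and 23 had an unadjusted p under 0.05 on the lower side, and its median of -0.92 lay between -1.17 and -0.62 in the 24 alternative fits. The called gene was LOC100650366, which has no name in the files. It had 33.8, 50.8, 117, 82.0 and 30.8 CPM in Wmb4, against a median of 193 CPM (61.5 to 341) in the ungrazed bees, with a log2 fold change of -1.61 (SE 0.368, adjusted p = 0.0448 from edgeR). The mean of the 31 genes was -0.72, -0.90, -0.50, -0.37 and -0.66 in the bees of Wmb4, against a median of 0.37 (-1.13 to 0.83) in the ungrazed bees. H5 and H6 each had 2 bees as low as those of Wmb4, and all 5 bees of Wma6 were above them.

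The lysosome list had 48 of 50 tested genes below 0 with a median of -0.55, and 20 had an unadjusted p under 0.05 on the lower side, but 0 were called. LOC100646374, the member with the smallest p, had 38.1, 43.3, 37.1, 48.9 and 72.7 CPM in Wmb4, against a median of 112 CPM (28.6 to 196) in the ungrazed bees (log2 fold change -1.31, adjusted p = 0.0587 from edgeR). LOC100648212, the second, differed by -1.85 on the log2 scale (adjusted p = 0.0761). The mean of this list moved with the gut-type score: it was -1.27, -0.84 and -1.19 in the 3 bees of Wmb4 with a low score and -0.28 and 0.17 in the other 2. With the gut-type score as a covariate the median of the lysosome list was -0.22, those of the sphingolipid and the neuroactive ligand-receptor lists were -0.14 and -0.35 in place of -0.51 and -0.72, and those of the peroxisome and the valine, leucine and isoleucine lists were -0.71 and -0.73. The same covariate left 0 of the 50 genes called, while their log2 fold changes kept a median of -1.39 for the lower and 0.80 for the higher ones.

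**Figure D3:**
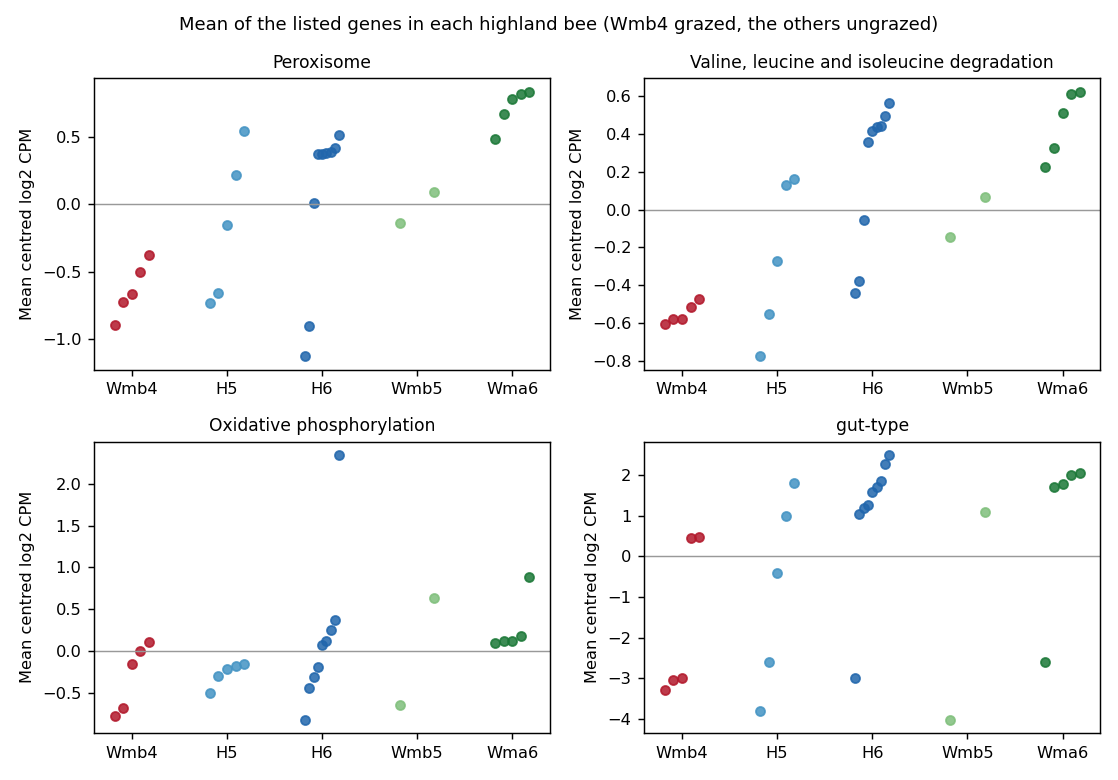
Mean of the listed genes in each highland bee on a centred log2 CPM scale (y axis), by site, with 1 point per bee. The bees of Wmb4 lie at -0.90 to -0.37 for the peroxisome and at -0.61 to -0.47 for branched-chain amino acids, and 4 ungrazed bees of H5 and H6 are as low for the peroxisome and 2 of H5 for branched-chain amino acids, while in the gut-type list 3 of them are near -3 and the other 2 near 0.5.

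The other called genes with names were leucine-rich repeat-containing protein 58 (LOC100643003) and ejaculatory bulb-specific protein 3 (LOC100643514). The name of the second comes from a fly protein, and its family of chemosensory-type proteins binds small hydrophobic molecules. It had 32.2, 24.2, 28.2, 26.9 and 25.8 CPM in Wmb4, against a median of 58.2 CPM (30.3 to 107) in the ungrazed bees, where 1 bee of Wmb5 was below the highest bee of Wmb4 (log2 fold change -1.21, SE 0.262, adjusted p = 0.0434 from edgeR). LOC100643003 had 101, 61.0, 94.0, 79.8 and 94.2 CPM in Wmb4, against a median of 315 CPM (76.5 to 584) in the ungrazed bees, a log2 fold change of -1.80 (adjusted p = 0.0405). The largest change among all called genes, looked up after the values were seen, was that of LOC105666790, which has no name, with 1.68, 3.37, 4.85, 3.08 and 0.358 CPM in Wmb4 and a median of 40.5 CPM (0.231 to 125) in the ungrazed bees. Its log2 fold change was -4.18, and 3 ungrazed bees were as low as those of Wmb4. LOC100643020, also without a name, had 22.9, 55.2, 63.5, 35.4 and 14.7 CPM in Wmb4, against a median of 460 CPM (7.39 to 1172) in the ungrazed bees, and the same 3 bees (H5 replicates 3 and 4 and H6 replicate 9) were below the highest bee of Wmb4.

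The ungrazed sites were not alike in the 35 lower genes. Wma6, the highest site, had the highest mean of the 5 highland sites in 33 of them and H6 in the other 2, and the second lowest mean was at H5 in 18 genes, Wmb5 in 14 and H6 in 3. The median difference of Wmb4 was -2.15 from Wma6, -1.37 from H6, -1.20 from Wmb5 and -1.14 from H5 on the log2 scale. H5, the lowest site, thus lay nearest to Wmb4, and Wmb4 lies between H5 and the other 3 sites in elevation. With site elevation as a covariate edgeR called 0 genes (690 at an unadjusted p under 0.05), while the lower genes kept a median of -1.31 and the higher genes one of 0.77. Within the ungrazed group the low values fell to few bees: H5 replicate 4 was the lowest ungrazed bee in 16 of the 35 genes, H5 replicate 3 and H6 replicate 2 in 6 each and H6 replicate 9 in 4. The gut-type scores of these 4 bees were -0.42, -2.60, 1.72 and 1.05, in that order. When all 16 sites of the series were ranked by their mean, Wmb4 was the lowest of the 16 in all 35 genes. Among all genes tested it was the lowest in 652 (6.85%). These genes were chosen for low values at Wmb4, so that a low rank among the highland sites was set by the choice.

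**Figure D4:**
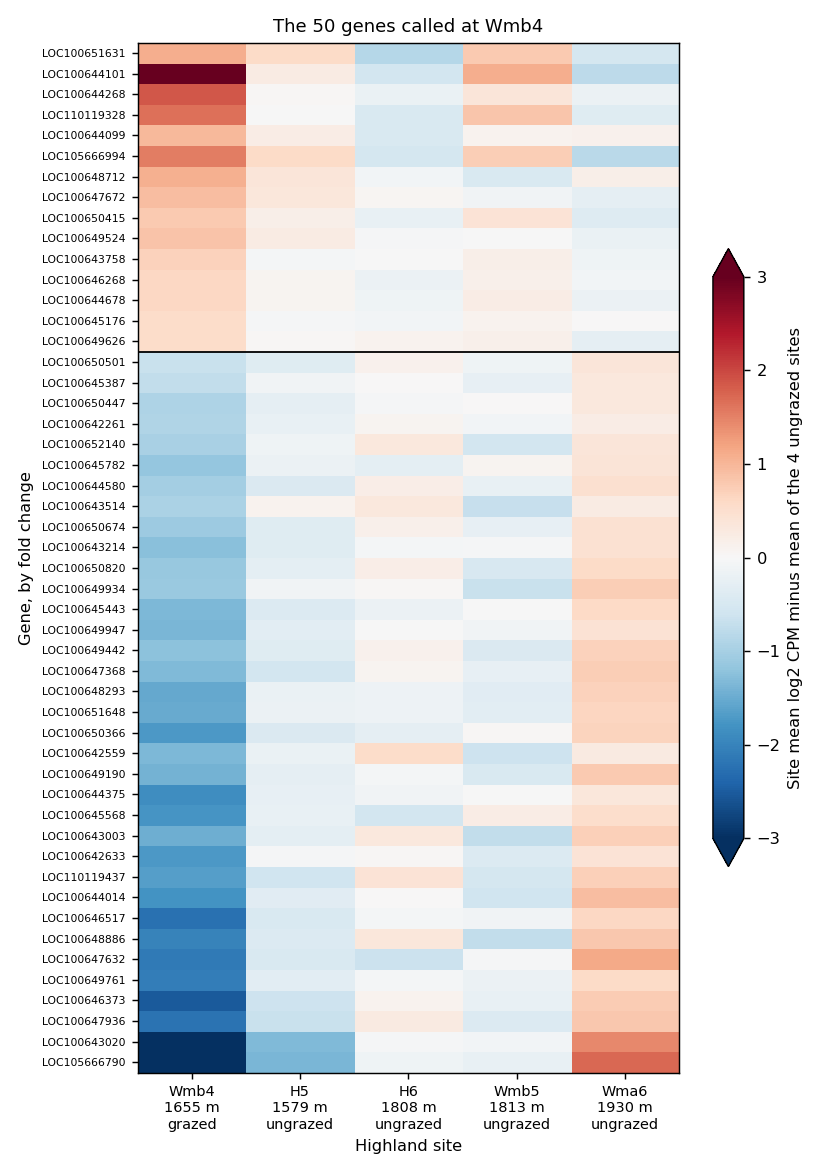
Mean log2 CPM of the 5 highland sites (columns, Wmb4 first and then by elevation) in the 50 genes called at Wmb4 (rows, ordered by log2 fold change), minus the mean of the 4 ungrazed sites, with colours cut at 3 in either direction. Blue marks the 35 lower genes at Wmb4, and Wma6 is the reddest ungrazed site in 33 of them.

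The higher genes were fewer, smaller in change and mostly without a name: 13 of the 15 have none and the other 2 are uncharacterized. LOC105666994 was the most even of those with a larger change, with 38.9, 39.9, 37.7, 33.6 and 43.4 CPM in Wmb4, against a median of 10.1 CPM (4.19 to 34.9) in the ungrazed bees. Only 1 ungrazed bee, H5 replicate 3, was above the lowest bee of Wmb4, and the log2 fold change was 1.52 (SE 0.337, adjusted p = 0.0448 from edgeR). LOC100644101 had 195, 64.8, 225, 66.9 and 153 CPM in Wmb4, against a median of 8.59 CPM (0.322 to 92.3) in the ungrazed bees, of which 2 were above the lowest bee of Wmb4 (log2 fold change 2.77, SE 0.655, adjusted p = 0.0460). LOC100646268 and LOC100644678 showed small and even shifts. The values of the first were 37.4, 33.4, 31.9, 32.1 and 24.5 CPM in Wmb4, against a median of 18.7 CPM (14.5 to 30.9) in the ungrazed bees, a log2 fold change of 0.67 (SE 0.13, adjusted p = 0.0392). Those of the second were 17.4, 16.0, 16.6, 12.6 and 15.9 CPM in Wmb4, against a median of 10.2 CPM (6.86 to 14.1) in the ungrazed bees, a log2 fold change of 0.65.

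In 5 of the higher genes a few bees held most of the CPM of the site or set its mean. LOC100644099 had 208 and 200 CPM in Wmb4 replicates 1 and 5 and 19.2, 14.7 and 14.6 CPM in the other 3 bees, against a median of 21.1 CPM (10.6 to 70.2) in the ungrazed bees, so that the median of Wmb4 was not above that of the ungrazed bees although the log2 fold change was 1.99 (adjusted p = 0.0392 from edgeR). The same 2 bees were high in LOC100644268, with 25.8 and 29.4 CPM beside 1.36, 2.12 and 2.88 CPM in the others and a median of 1.27 CPM (0.275 to 10.9) in the ungrazed bees. In LOC100651631 Wmb4 replicate 3 alone held 82.9% of the CPM of the site, with 23.6 CPM beside 0.153 to 2.91 CPM in the other 4 bees. LOC110119328 was high in replicates 2, 3 and 4, with 3.19, 4.85 and 6.46 CPM, and at 0.559 and 0.562 CPM in replicates 1 and 5, against a median of 0.483 CPM (0.151 to 2.79) in the ungrazed bees. The highest ungrazed bee in both LOC100651631 and LOC110119328 was Wmb5 replicate 2. LOC100648712 had 5.71 CPM in Wmb4 replicate 1 and 0.842 to 2.30 CPM in the other 4 bees, against a median of 0.834 CPM (0.405 to 1.59) in the ungrazed bees, and its log2 fold change was 1.33, but 0.68 without that bee. Over the 15 higher genes, Wmb5 had the second highest site mean in 11 and H5 in 4. Wmb4 was the highest of all 16 sites in 11 of these genes, which were chosen for high values at Wmb4. Among all genes tested it was the highest in 659 (6.92%).

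Genes of replication, repair and translation had small shifts, mostly above 0. Of the listed genes, 17 of 23 for DNA replication, 5 of 6 for mismatch repair, 16 of 20 for nucleotide excision repair, 22 of 33 for aminoacyl-tRNA biosynthesis and 23 of 31 for ribosome biogenesis were above 0, beside 50.3% of all genes. Their medians were 0.12, 0.33, 0.17, 0.11 and 0.13, and 0 genes of these lists were called, with 3, 0, 2, 3 and 7 at an unadjusted p under 0.05 on the higher side. In the same order these were 13%, 0%, 10%, 9.09% and 22.6% of the tested members, beside 6.98% of all genes. LOC100646210, the DNA replication gene with the smallest p, had 21.3, 12.5, 16.5, 22.1 and 21.5 CPM in Wmb4, against a median of 11.8 CPM (9.70 to 18.2) in the ungrazed bees (log2 fold change 0.52, adjusted p = 0.138 from edgeR), and LOC100644405 differed by 0.49 on the log2 scale (adjusted p = 0.176). For mismatch repair the smallest p values were those of LOC100650425 and LOC100646764, with log2 fold changes of 0.36 and 0.35 and adjusted p values of 0.391 and 0.431. In oxidative phosphorylation 29 of 30 genes were below 0 with a median of -0.50, but only 3 had an unadjusted p under 0.05. The median was -0.25 with the slope of expression on gene length as a covariate and -0.30 with site elevation as one. Its members with the smallest p, LOC100650867 and LOC100642821, had adjusted p values of 0.342 and 0.356, and their highest ungrazed value came from 1 bee, H6 replicate 6, with 1111 and 514 CPM beside medians of 134 and 80.8 CPM.

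Immune and stress genes gave no call. Of 9 tested immune genes 5 were above 0, with a median of 0.12. The toll-like receptor Tollo (LOC100644648), of a family of pattern recognition and developmental receptors, had 43.8, 23.6, 88.4, 40.5 and 33.9 CPM in Wmb4, against a median of 24.8 CPM (4.94 to 57.3) in the ungrazed bees (log2 fold change 0.92, adjusted p = 0.186 from edgeR). The kunitz-type serine protease inhibitor Bt-KTI (LOC100631053), first known from bumblebee venom, had 639, 1349, 3553, 8881 and 392 CPM in Wmb4, against a median of 924 CPM (203 to 4069) in the ungrazed bees, and a log2 fold change of 1.19 that did not pass (adjusted p = 0.309). Of 17 heat shock and chaperone genes 11 were below 0 with a median of -0.24, which was 0.40 with the Watzmann sites only. DnaJ homolog subfamily C member 2 (LOC100649201), a chaperone bound to the ribosome, was at 89.9 and 110 CPM in Wmb4 replicates 1 and 5 and at 41.4, 41.6 and 55.0 CPM in the other 3 bees, with a median of 47.9 CPM in the ungrazed bees (adjusted p = 0.356). The mitochondrial chaperone dnaJ 1 (LOC100645838) differed by -0.81 on the log2 scale (adjusted p = 0.394).

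Across the 50 pathways with at least 5 tested genes, the median was below 0 in 42 and above 0 in 8, and it was beyond 0.5 in 19 pathways on the lower side and in 0 on the higher side. Of the 35 lower genes 14 stood in a list, and of the 15 higher genes 1, LOC100644268 in the fly MAPK signaling list, where 7.11% of the tested genes stood in any. The lists hold genes that the study named in comparisons that include these bees. Neither these shares nor the pathway medians are thus independent evidence. Apart from the lists the 50 genes had little in common that could be read from the files. All are protein-coding, as is the whole table, and they lie on 20 assembled sequences of the genome. No pair of them was adjacent in the order of tested genes. The closest, the lower genes LOC100651648 and LOC100649934, had 3 tested genes and 7676 bases between them. The median exon length was 2201 bases for the lower genes, 2150 for the higher genes and 2444 for all genes tested. In 9 of the 50 genes over 50% of the highland counts were not whole numbers, so that part of their reads is shared with other genes.

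The lowland belt has 3 grazed and 3 ungrazed sites with 15 bees each, and was used to see whether the same genes differed between these groups. The lowland sites differ in elevation, mean temperature and transect. None of these was adjusted for, so grazing and these site traits were not separated there. Of 9273 genes edgeR called 0 higher and 0 lower in grazed lowland bees (0% each), with 1284 at an unadjusted p under 0.05 (9.87% higher and 3.98% lower), and limma with site as a random block also called 0 (309 at an unadjusted p under 0.05). The 35 lower genes of Wmb4 had a lowland median of -0.11, with 24 below 0, and the 15 higher genes one of 0.05, with 10 above 0. The lowland median of all genes was 0.03, so that of the higher genes was close to it. Only 4 of the 50 had an unadjusted lowland p under 0.05. Amidophosphoribosyltransferase (LOC100649761), for example, had a lowland log2 fold change of -0.16 beside -2.35 in the highland, and P450 9e2 (LOC100647368) one of 0.09 beside -1.50. The difference between the belts was itself tested as an interaction. A single gene of 9700 was called (0.0103% higher and 0% lower), LOC100644099, with a difference of 2.39 (SE 0.468, adjusted p = 0.0395 from edgeR) that rests on the same 2 bees of Wmb4. An unadjusted interaction p under 0.05 was found for 3.31% of the genes on the higher side and 6.7% on the lower side. DESeq2 called 9 higher and 55 lower genes in the interaction, and limma with site as a random block called 0 in both directions (309 at an unadjusted p under 0.05).

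Pathway medians also differed in part between the belts. The peroxisome list was below 0 in both, with -0.92 at Wmb4 and -0.49 in grazed lowland bees, where 29 genes were below 0 and 1 above. The unsaturated fatty acid list was likewise at -0.41 and -0.43, with 17 of 17 lowland genes below 0. Oxidative phosphorylation had opposite signs: -0.50 with 29 of 30 genes below 0 at Wmb4, and 0.66 with 30 of 30 above 0 in grazed lowland bees. The highland value was not particular to Wmb4. On the centred log2 scale the list had a site mean of -0.30 at Wmb4, -0.27 at H5, -0.01 at Wmb5, 0.16 at H6 and 0.28 at Wma6. The bees of Wmb4 ran from -0.77 to 0.11, and H6 replicate 6 stood at 2.34. Muscle genes moved in the same way, with medians of -0.49 at Wmb4 and 1.38 in grazed lowland bees, and their part in the oxidative phosphorylation values was not tested. For 0 of the 30 oxidative phosphorylation genes did edgeR call the interaction. The DNA replication, mismatch repair and ribosome biogenesis lists had small medians above 0 in both belts, 0.12 and 0.07, 0.33 and 0.21, and 0.13 and 0.10. The study drew up all pathway lists named here from its own comparisons of these bees, that of grazing among them. Neither a sign that the belts share nor the opposite signs of oxidative phosphorylation are thus independent evidence. The paper reported oxidative phosphorylation as higher on grazed sites over all its bees, so its lowland sign is partly set by the choice of genes.

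**Figure D5:**
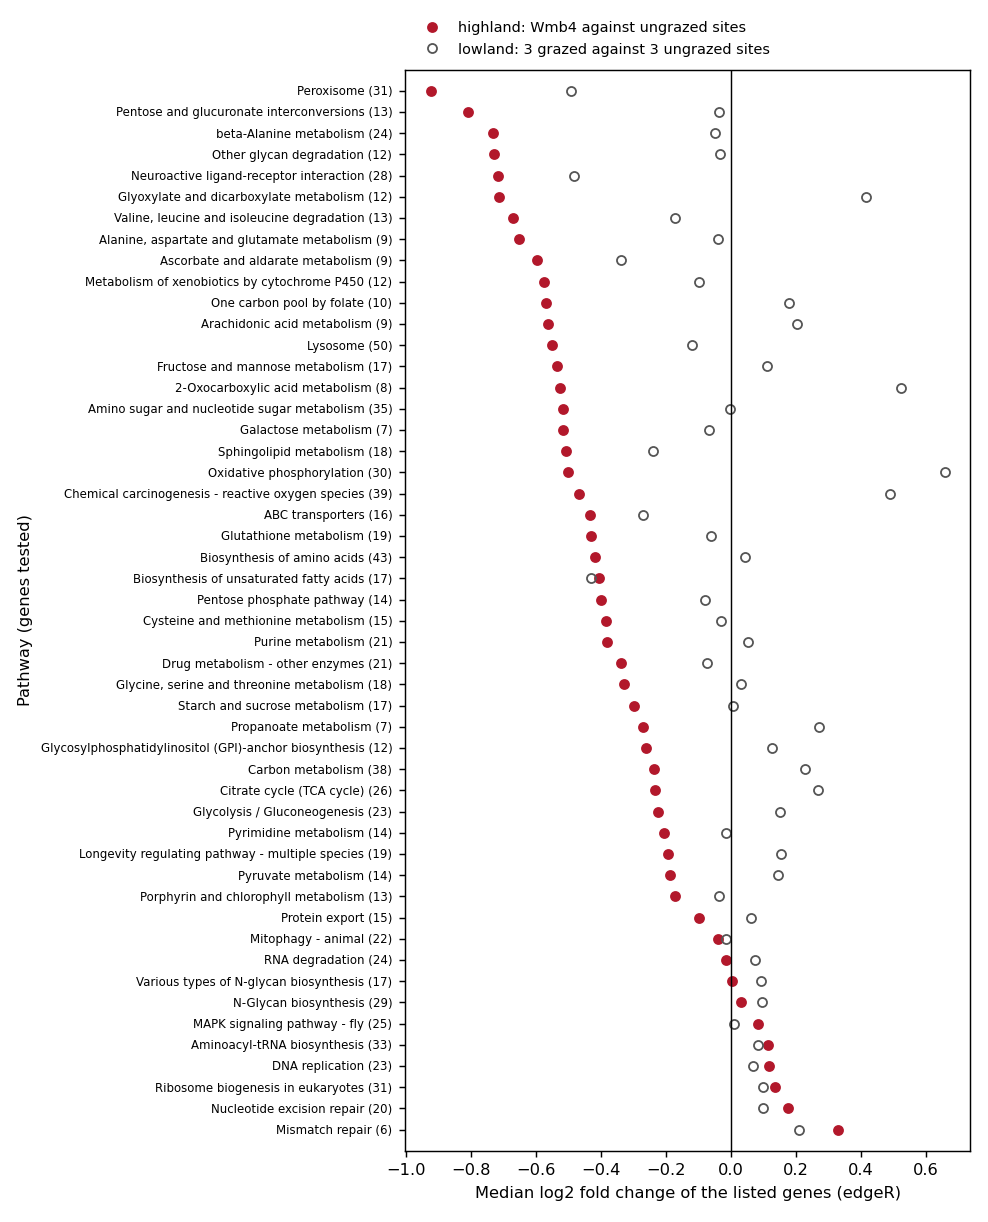
Median log2 fold change (x axis) of the genes the study lists for 50 pathways, with the number of genes tested in brackets, filled for Wmb4 against the ungrazed highland bees and open for grazed against ungrazed lowland bees. The highland medians are below 0 in 42 pathways, and the 2 belts are farthest apart for oxidative phosphorylation, at -0.50 and 0.66.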

How the data were processed

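The authors trimmed single-end reads with Cutadapt 2.5, aligned them with STAR 2.7.2b to the *B. terrestris* assembly Bter_1.0, a related species, and counted them on exons with featureCounts 1.6.4. The deposited table holds estimated counts for 10581 protein-coding genes, stranded and not normalized, with reads that fit several genes shared as fractions (28.5% of values are not whole). They were rounded to whole numbers. The filter of edgeR on low counts left 9519 genes, libraries were scaled with TMM, and differences were tested with the quasi-likelihood test of edgeR 4.0.16 in R 4.3.3 over the highland bees with 2 groups. Adjusted p values are Benjamini-Hochberg over all genes tested. Alternatives used DESeq2 1.42.0, limma 3.58.1, other samples, covariates or filters. Log2 CPM used a prior count of 2.

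Bees counted as independent samples, so p values measure the spread between bees of few sites. The residual correlation of bees of a site (limma) was 0.0231 in the highland fit, 0.169 in the lowland and 0.114 in the interaction. Pathway lists hold the genes the study names for each enriched pathway where its list was complete. These are the genes behind each enrichment in the study's own comparisons, not all members of a pathway. Names were at hand for 1777 genes. The rule for naming picked, per direction, the 15 called genes of smallest p, and the called members of the lists (at most 4). For 8 lists it also picked the 2 members with the smallest p where none was called. Not all genes so picked are described, and those described lean towards genes with a name. LOC100644375, the lower gene of smallest p, is among those left out (log2 fold change -1.65, adjusted p = 0.0392 from edgeR). Other called genes and list members in the text were chosen after their values were seen. The members and lists were chosen with earlier results of these data known. On simulated counts for Wmb4 against the other highland bees (9519 genes), the test recovered 50% of genes changed by 1 on the log2 scale. It recovered 92% of those changed by 2 and called 4 unchanged genes. The simulated counts held no site effect and no genes that move together, so these shares do not give the recovery of a grazing difference. No sequence was used.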

Additional observations from a re-analysis of the deposited data

Results flagged for a closer look

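In the uncharacterized gene LOC100651631, 1 of the 5 bees of Wmb4 stood far from the others, at 23.6 CPM. In the gut-type score, 1 bee stood far below the other bees of its site at H6 (-2.999) and 1 at Wma6 (-2.59). In the slope of expression on gene length (both as log2), Wmb4 replicate 2 had 0.142, far below the other 4 bees of its site, which had 0.314 to 0.381. Chance alone sets 1 sample apart in about 1 of 20 groups, and 61 groups were examined. The difference between the belts in the change of LOC100644099 with grazing was 2.39 on the log2 scale by the interaction term of edgeR (adjusted p = 0.0395), and Wmb4 replicates 1 and 5 carry it.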

How the results depend on the processing

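All 50 genes called at Wmb4 kept their direction in all 24 alternatives. They were chosen for a difference in bees that the alternatives share, so a kept direction is largely set by the choice. The total count as a covariate and the reduction of H6 to its bees 1 to 5 were chosen after seeing the data. The counts moved widely. Higher and lower genes at Wmb4 numbered 45 and 179 with DESeq2 and its prior, 46 and 195 without the prior, 15 and 42 with DESeq2 size factors in edgeR, and 14 and 38 with no filter on low counts. They were 63 and 108 without H5, 24 and 44 without Wmb5, 105 and 192 with the Watzmann sites only, 7 and 24 with 1 mean per highland site, 25 and 55 with 1 mean per site over all 81 bees, 14 and 44 in limma with site as a random block, and 9 and 21 with the total count as a covariate. Both were 0 with counts summed per site (614 genes at an unadjusted p under 0.05), without H6, without Wma6, and with elevation (690), the gut-type score (907) or the slope on exon length (1126) as a covariate. Without 1 bee of Wmb4 there were 0 to 3 higher and 0 to 5 lower genes. With the bee number as a replicate block both were 0 (1292 genes at an unadjusted p under 0.05), but bees share only a number: only 4 of 15 bees correlated best with the Wmb4 bee of their own number.

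With DESeq2 and its prior, H5 had 11 higher genes, H6 had 75 higher and 68 lower, Wma6 had 24 and 41, and Wmb5 had 1 higher. Without Wmb4, H5 had 2 higher genes, H6 had 1 higher and 2 lower, and Wma6 had 1 higher. H6 with its bees 1 to 5 only had 113 higher and 42 lower genes. The interaction gave 9 higher and 55 lower genes with DESeq2 and 0 with limma and site as a random block. The difference in the gut-type score was -2.62 (exact permutation p = 0.0202) without Wmb4 replicate 2 and -2.615 (exact permutation p = 0.0205) without replicate 3, the 2 bees of Wmb4 with high scores, and -1.75, -1.68 and -1.74 (exact permutation p = 0.146, 0.164 and 0.149) without replicates 1, 4 and 5. With all bees the p of 0.053 was 0.212 when adjusted over 4 measures. The sign of the small medians of the immune, heat shock, citrate cycle and glycolysis lists changed in at least 1 alternative.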

Other observations

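Marker genes of other tissues showed no call at Wmb4. The 3 fat body and haemolymph genes, vitellogenin, a vitellogenin-like gene and hexamerin, which are storage and yolk proteins, summed to a median of 100 CPM (17.9 to 1054) in Wmb4 and of 20.8 CPM (7.66 to 3745) in the ungrazed bees. Of 8 genes of the venom gland 6 were below 0, with summed levels of 521 to 2897 CPM in Wmb4 and 589 to 2741 CPM in the ungrazed bees. The 2 ovary and germ line genes summed to 57.9 to 217 CPM in Wmb4 and 68.7 to 228 CPM in the ungrazed bees. The 26 nervous system genes summed to 274 to 423 CPM in Wmb4 and 193 to 690 CPM in the ungrazed bees, and the 16 genes named for axonemes and testis to 148 to 276 CPM and 129 to 238 CPM.

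Of the 19 muscle genes 17 were below 0 at Wmb4, while in grazed lowland bees 12 were above 0 and 6 below. None was called in either belt by edgeR. The 5 tested genes named nose resistant to fluoxetine, membrane proteins known from a nematode screen, were all below 0 at Wmb4, with a median of -0.92 in the highland and of -0.91 in the lowland and 0 calls.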
